A study of Mus musculus with 4 samples.

Results

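The mitochondrial ribosomal protein genes are the nuclear genes for the protein components of the ribosome inside mitochondria. Members were taken as every gene whose symbol starts with Mrpl (large subunit) or Mrps (small subunit) followed by a digit, which gave 77 of the 24347 genes listed: 48 large subunit and 29 small subunit genes. The study asked what a micropeptide, NEMEP, encoded by the Gm11549 locus, does when mouse embryonic stem cells become mesendoderm, the common precursor of mesoderm and endoderm. RNA sequencing of total RNA was done on embryoid bodies (EBs), aggregates in which stem cells differentiate, collected at day 3 of culture in serum medium without the self-renewal factor LIF. The WT group (n = 2) was 129/Ola embryonic stem cells with the locus intact, and the promoter KO group (n = 2) was the same strain with the Gm11549 promoter removed by CRISPR/Cas9 editing. EBs of both groups received no other treatment, and the labels call all 4 samples ES-derived mesendoderm cells. The study describes the samples of each group as biologically independent, but the labels do not say whether they were separate cultures, and although its methods describe edited clones grown from single sorted cells, which clone each promoter KO sample came from is not given in the sources used here. The p-values therefore measure only the spread between these samples, which may be in part technical.

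Mitochondria keep a small genome that encodes a handful of membrane subunits of the respiratory chain and ATP synthase, together with the RNAs needed to translate them. All the protein components of the mitochondrial ribosome are encoded in the nucleus, made on cytosolic ribosomes and imported. The small subunit holds the messenger RNA and reads its codons, and the large subunit joins the amino acids and passes the chain towards the inner membrane. Some of these proteins have a counterpart in the bacterial ribosome, whereas others are found in the mitochondrial ribosome only. Pluripotent cells rely strongly on glycolysis, and the use of mitochondrial respiration shifts as they differentiate, which is why genes of mitochondrial translation are of interest in EBs.

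Levels are given as FPKM (fragments of a gene scaled to the length of its transcripts and to the fragments of its library). Over all genes, FPKM totalled 677777 and 696928 for WT 1 and WT 2, and 673951 and 679870 for promoter KO 1 and promoter KO 2. Read counts were not analysed here. From the pile-up of low values that stands for 1 fragment, and assuming fragments of 200 bases, the depth was about 24700000, 21900000, 21500000 and 20100000 fragments, in the same order. The targeted gene Gm11549 was at 0.750 and 0.522 FPKM in WT 1 and WT 2, listed at 0 in promoter KO 1, and at 0.0659 FPKM in promoter KO 2. Both promoter KO samples were below both WT samples, as their labels say, but at levels under 1 FPKM, so the gene was not tested.

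The labelled cell type was set beside markers, from a list chosen with earlier results of these data known. Summed over the 10 mesendoderm markers, WT 1 and WT 2 had 803 and 1041 FPKM, against 159 and 329.8 FPKM for promoter KO 1 and promoter KO 2. The most abundant was T, the brachyury gene of the primitive streak. No marker of this list was at 0 in all 4 samples, so the WT samples carried the markers of their label, and the promoter KO samples carried less of them. A lower level in a bulk sample can come from fewer cells of a type or from less RNA per cell, and these cannot be told apart here.

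The bases around the starts of the members, which played no part in choosing them, were searched for letters that transcription factors bind. Among the 68 members with an entry in the RefSeq promoter table (GRCm38.p6, 250 bases before to 50 bases after the start), 20 (29.4%) held the letters GCCATNTT, the core bound by the transcription factor YY1, on either strand. The same letters were in 9.24% of the 9110 promoters of tested genes and in 6.23% of all 27025 promoters. In 13 of the 20 members the letters lay after the start only, and in 15 of them a match after the start was on the strand opposite to the gene. To show what these starts have in common, 30 bases around the letters are printed for the 2 members with the highest change in each subunit, the 2 with the lowest change in the large subunit and the 1 with the lowest change in the small subunit, among those whose surrounding bases fall inside the window. Capitals mark the matched letters, and each is written 5′ to 3′ on the strand that reads GCCATNTT.
Mrpl51: cagtaagaggaGCCATTTTgggccttaccc
Mrpl18: aactagtcgcaGCCATGTTaactgtgggta
Mrpl24: aagaaaatggaGCCATGTTctctgtgaact
Mrpl27: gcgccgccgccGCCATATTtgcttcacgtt
Mrps11: ctacgggcgccGCCATCTTtctgtcttccc
Mrps18a: ccctgagggccGCCATCTTggaacgcacct
Mrps30: acctggccgccGCCATTTTcgcccgccgcg

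In Mrpl51 (chr6:125192207-125192236, minus strand), Mrpl18 (chr17:12916067-12916096, plus strand), Mrpl27 (chr11:94653788-94653817, minus strand), Mrps18a (chr17:46111004-46111033, minus strand) and Mrps30 (chr13:118387219-118387248, plus strand) the letters read on the strand opposite to the gene and began 6 to 18 bases after its start. In Mrpl24 (chr3:87919380-87919409, plus strand) and Mrps11 (chr7:78783013-78783042, plus strand) they read on the strand of the gene and began 153 and 107 bases before its start. For Mrpl24, the member with the longest stretch before the start that holds the letters and no annotated untranslated base, 212 bases of the promoter are shown (chr3:87919294-87919505, plus strand), with the letters in capitals.
Mrpl24: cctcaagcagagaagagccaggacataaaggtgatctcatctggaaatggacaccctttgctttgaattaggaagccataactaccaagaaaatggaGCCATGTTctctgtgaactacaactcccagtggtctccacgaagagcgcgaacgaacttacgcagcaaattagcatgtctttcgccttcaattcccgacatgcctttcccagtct

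The other letters searched, on both strands of the same window, were those of factors known for nuclear mitochondrial genes or for promoters in general. The ETS family letters CCGGAAG, which the factor GABPA binds, were in 24 members (35.3%, against 19.0% of tested and 9.12% of all promoters). The letters GCATGCGC of NRF1, a classical activator of respiratory genes, were in 8 members (11.8%, against 5.82% and 2.80%). The SP1 family letters GGGCGG were in 34 of the 68 members, against 68.1% of tested and 35.9% of all promoters. The MYC/MAX E-box CACGTG and the ZNF143 letters TACANNTCC were in 5 members each (7.35%, against 10.8% and 6.48% of tested and 7.24% and 4.66% of all promoters), and the TATA box letters TATAAA in 4 (5.88%, against 6.41% and 14.2%). None of these strings contains another, although matches of different strings can share bases. A match says only that the letters are there.

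All 77 members were expressed and passed the filter of at least 1 FPKM in at least 2 samples, as did 11941 genes in all. Over the 4 samples, the mean level of a member ranged from 9.68 FPKM (Mrpl19) to 241 FPKM (Mrpl52), with a median of 59.1 FPKM, against 11.8 FPKM over all tested genes. The summed level of the large subunit genes was 3517 FPKM for WT 1 and 3586 for WT 2, against 3751 for promoter KO 1 and 3646 for promoter KO 2. Their sum was 3551 ± 48.8 in WT and 3699 ± 74.2 in promoter KO (SD, n = 2), a ratio of 1.04. That of the small subunit genes was 1868 and 1873 FPKM across the WT pair, against 1972 and 1927 across the promoter KO pair, or 1871 ± 3.70 and 1949 ± 31.5 (SD, n = 2), also a ratio of 1.04. In both subunits both promoter KO sums were above both WT sums, by a few percent, which for the large subunit did not hold without members at certain positions (described with the chromosomes). The smallest two-sided p that an exact permutation test of 2 against 2 samples can give is 0.333, so that test could not pass 0.05 for these sums, and no other test was run on them. Of all FPKM, the members took 0.794% and 0.783% in WT and 0.849% and 0.820% in promoter KO.

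**Figure D1:**
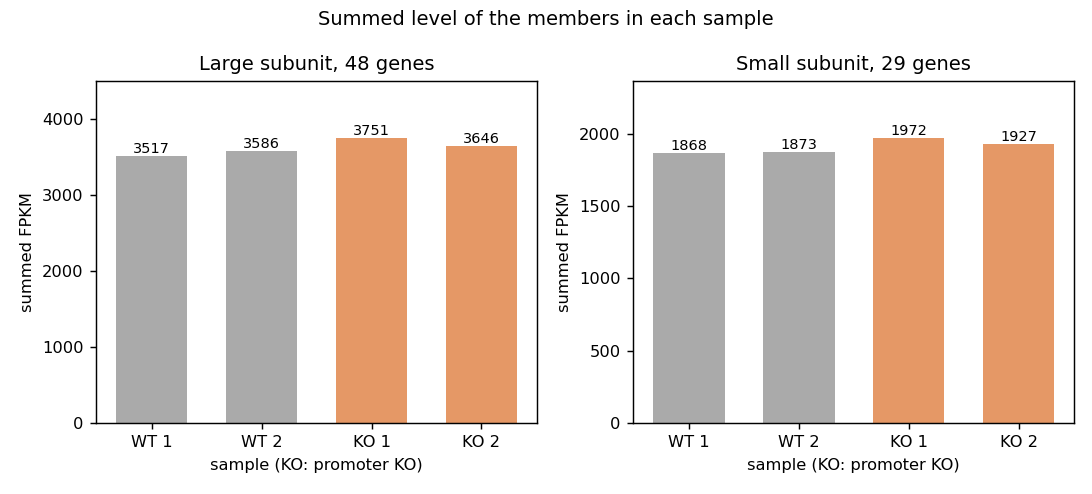
Summed FPKM of the 48 large subunit genes (left) and the 29 small subunit genes (right) in each sample, with axes from 0 and 1 bar per sample, so that no error bar is drawn. Both promoter KO bars (3751 and 3646, 1972 and 1927) stand slightly above both WT bars (3517 and 3586, 1868 and 1873).

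The comparison asked whether loss of Gm11549 transcription goes with another level of these genes at day 3. With limma across all tested genes, 0 of the 77 members passed a Benjamini-Hochberg adjusted p of 0.05, where 427 of 11941 genes (3.58%) did. The lowest limma adjusted p of any member was 0.0743 (Mrps11). At an unadjusted p under 0.05, 12 members were higher in promoter KO (15.6% of members, against 15.0% of all tested genes) and 6 were lower (7.79%, against 15.6% of all tested genes). Under quantile normalisation this split was 11 higher and 9 lower, against 30.8% of all tested genes in both directions together. Without the mean-variance trend of limma it was 8 and 2, against 29.0%. The large and small subunit median log2 fold changes were 0.08 and 0.10 without WT 1, and 0.10 and 0.08 without WT 2. They were 0.05 and 0.04 without promoter KO 1, and 0.11 and 0.12 without promoter KO 2. Over all tested genes the median was 0.0105, -0.00218, 0.0131 and -0.00760, in the same order. With all 4 samples every change was small, between -0.46 (Mrpl57) and 0.54 (Mrpl19) on the log2(FPKM + 1) scale. The 95% interval of all 77 lay within 2-fold in either direction, as it did for 87.8% of tested genes. The interval lay within 1.5-fold for 63 of 77 members and for 6704 of 11941 tested genes. The members had a higher median level than all tested genes (59.1 against 11.8 FPKM) and a smaller median SE (0.0962 against 0.135), so these counts do not compare genes of like level.

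The median log2 fold change was 0.10 over the large subunit, 0.11 over the small subunit and 0.00417 over all tested genes. Of the large subunit genes 33 had a value above 0 and 15 below it, and of the small subunit genes 22 and 7, whereas 6036 of all tested genes were above 0 and 5905 below. Without promoter KO 1 the medians were 0.05 (large) and 0.04 (small), and without promoter KO 2 they were 0.11 and 0.12. Sample by sample, the median difference from the WT mean was 0.11 in promoter KO 1 and 0.05 in promoter KO 2 over the large subunit, and 0.12 and 0.04 over the small subunit. Promoter KO 1 thus held the higher level of the pair in 59 of 77 members, against 5552 of 11941 tested genes. The promoter KO pair lay above the WT pair without overlap in 35 members (45.5%, against 32.9% of tested genes) and below it in 14 (18.2%, against 32.4%), and the groups overlapped in the other 28. Since genes are not replicates of a condition, these shares are descriptions.

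**Figure D2:**
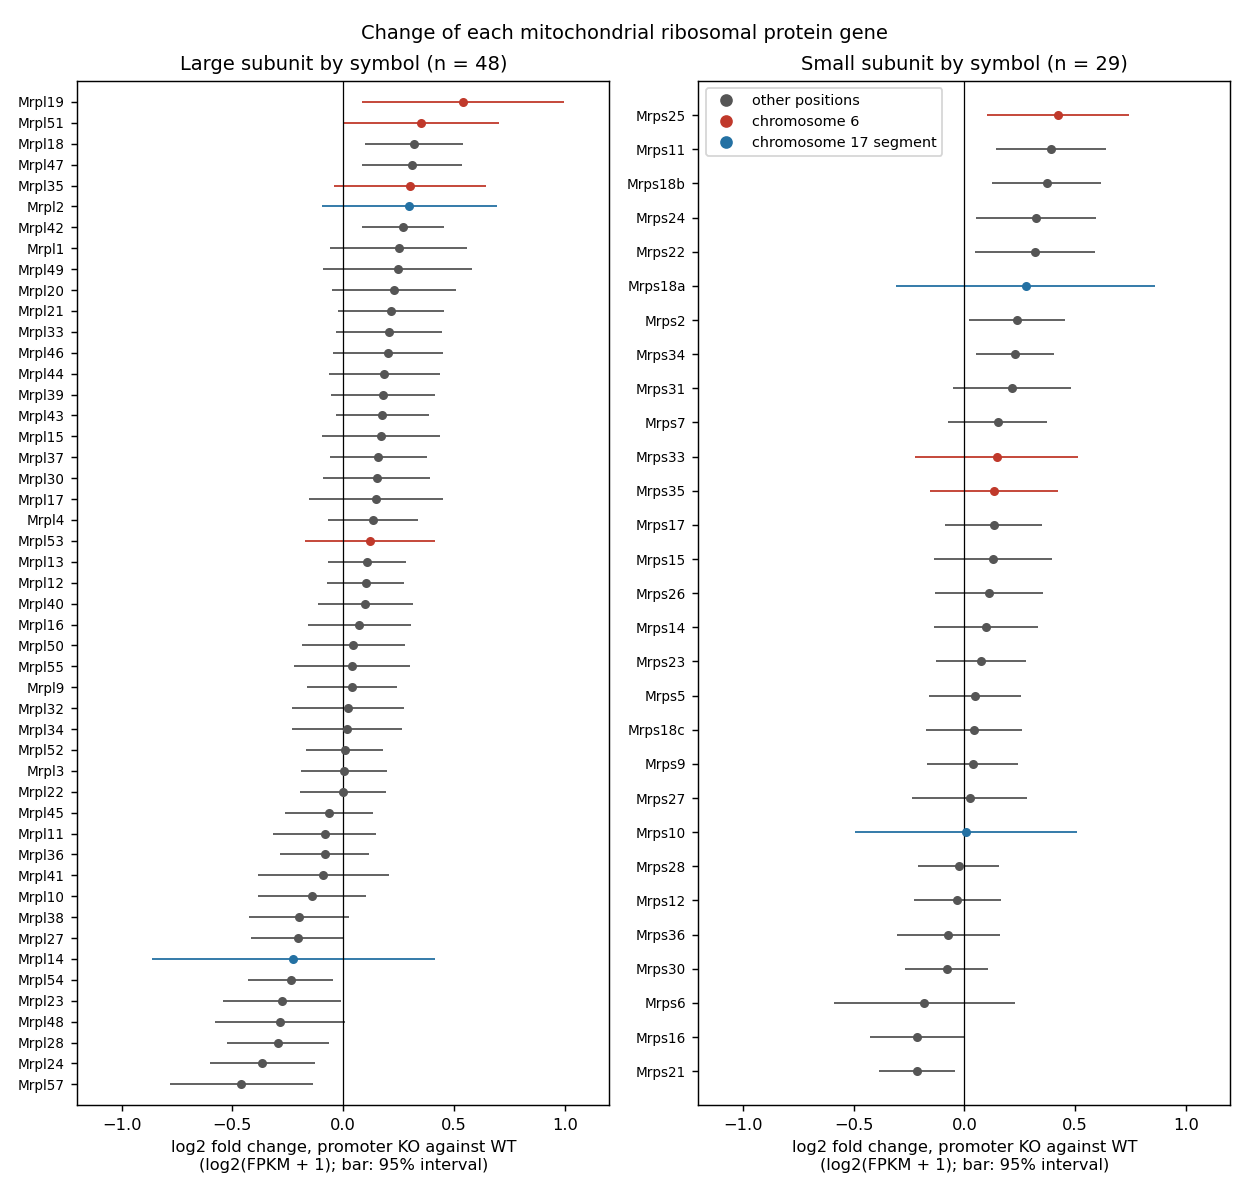
Log2 fold change of each member (promoter KO, n = 2, against WT, n = 2, on log2(FPKM + 1)), with its 95% interval from limma as a bar, for the large subunit (left, n = 48) and the small subunit (right, n = 29), coloured for members on chromosome 6 (red) and in a segment of chromosome 17 (blue). All points lie between -0.46 and 0.54, and most lie slightly above 0.

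Within the large subunit, the highest values belonged to Mrpl19, Mrpl51, Mrpl18, Mrpl47 and Mrpl35. Mrpl19, whose bacterial counterpart sits where both subunits meet, had 7.49 FPKM in WT 1 and 7.77 FPKM in WT 2, against 14.0 for promoter KO 1 and 9.50 for promoter KO 2, the order kept for the genes that follow. The groups did not overlap, but the promoter KO samples lay far apart, and the log2 fold change of 0.54 (SE 0.19) had a limma adjusted p of 0.124. Mrpl51, a protein without bacterial counterpart, had 64.1 and 61.4 FPKM across the WT pair, against 92.8 and 69.5 FPKM across the promoter KO pair, a log2 fold change of 0.35 (SE 0.14, limma adjusted p = 0.162). Here too promoter KO 1 stood well above promoter KO 2. Mrpl18, whose bacterial counterpart binds the smallest ribosomal RNA, had 108 and 102 FPKM across the WT pair, against 139.9 and 124 FPKM across the promoter KO pair, a log2 fold change of 0.32 (SE 0.09, limma adjusted p = 0.0862). Mrpl47 had 39.2 and 42.7 FPKM across the WT pair, against 52.6 and 49.4 FPKM across the promoter KO pair, a log2 fold change of 0.31 (SE 0.09, limma adjusted p = 0.0945). In both of these genes the groups did not overlap. Mrpl35 had 8.88 and 8.76 FPKM across the WT pair, against 12.4 and 9.92 FPKM across the promoter KO pair, with a log2 fold change of 0.30 (limma adjusted p = 0.207). Without promoter KO 1 the log2 fold change was 0.28 for Mrpl19, 0.15 for Mrpl51 and 0.15 for Mrpl35, and without promoter KO 2 it was 0.56 for Mrpl51.

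The lowest values of the large subunit belonged to Mrpl57, Mrpl24, Mrpl28, Mrpl48 and Mrpl23. Mrpl57, a small protein without bacterial counterpart, had 16.4 and 19.4 FPKM across the WT pair, against 13.5 and 11.8 FPKM across the promoter KO pair, a log2 fold change of -0.46 (SE 0.13, limma adjusted p = 0.0879). Mrpl24, shown above with its promoter, had 83.6 and 93.4 FPKM across the WT pair, against 71.6 and 65.3 FPKM across the promoter KO pair, a log2 fold change of -0.36 (SE 0.10, limma adjusted p = 0.0760). Both promoter KO samples were below both WT samples in each of these genes, and neither change passed the adjusted threshold. Mrpl28 had 113 and 130.1 FPKM across the WT pair, against 99.7 and 97.8 FPKM across the promoter KO pair (log2 fold change -0.29, limma adjusted p = 0.106). Mrpl48 had 26.0 and 31.3 FPKM across the WT pair, against 23.9 and 22.5 FPKM across the promoter KO pair (log2 fold change -0.29, limma adjusted p = 0.170). Mrpl23, whose bacterial counterpart lines the exit of the peptide tunnel, had 164 and 200.1 FPKM across the WT pair, against 149.3 and 149.3 FPKM across the promoter KO pair (log2 fold change -0.28, limma adjusted p = 0.155). In each of these genes, Mrpl57 and Mrpl24 included, WT 2 was the highest of the 4 samples, and in the last 3 too the groups did not overlap. Without WT 2 the log2 fold change was -0.345 for Mrpl57, -0.285 for Mrpl24, -0.19 for Mrpl28, -0.16 for Mrpl48 and -0.13 for Mrpl23. Without WT 1 it was -0.42 for Mrpl23.

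The most abundant large subunit genes, Mrpl52 and Mrpl34, had values near 0. Mrpl52 had 239 and 242 FPKM across the WT pair, against 237 and 246 FPKM across the promoter KO pair, a log2 fold change of 0.01 with a 95% interval from -0.17 to 0.18. Mrpl34, for a short basic protein of the subunit's core, had 248 and 208 FPKM across the WT pair, against 235 and 224 FPKM across the promoter KO pair, a log2 fold change of 0.02 with an interval from -0.23 to 0.26. In Mrpl52 and Mrpl34 the groups overlapped, and the spread between the WT samples of Mrpl34 was larger than the difference between group means. The stalk of the large subunit, which recruits translation factors, is formed by Mrpl12 on a base that includes Mrpl10. Mrpl12 had 203 and 209 FPKM across the WT pair, against 223 and 219 FPKM across the promoter KO pair (log2 fold change 0.10, limma adjusted p = 0.366), and Mrpl10 58.7 and 53.9 FPKM across the WT pair, against 54.0 and 48.0 FPKM across the promoter KO pair (log2 fold change -0.14, limma adjusted p = 0.367). The stalk protein and its base thus had values of opposite sign, both within intervals that include 0, and that of Mrpl10 was -0.22 without promoter KO 1, -0.06 without promoter KO 2 and -0.08 without WT 1. Mrpl42, once described in either subunit, had 189 and 197 FPKM across the WT pair, against 240.4 and 226 FPKM across the promoter KO pair, a log2 fold change of 0.27 (SE 0.08, limma adjusted p = 0.0850).

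In the small subunit the highest values belonged to Mrps25, Mrps11, Mrps18b, Mrps24 and Mrps22. Mrps25, which has no bacterial counterpart, had 13.2 and 12.1 FPKM across the WT pair, against 19.0 and 15.7 FPKM across the promoter KO pair, a log2 fold change of 0.42 (SE 0.13, limma adjusted p = 0.102). Mrps11, of the platform that faces the exit site of transfer RNA, had 36.4 and 35.6 FPKM across the WT pair, against 50.9 and 44.3 FPKM across the promoter KO pair, a log2 fold change of 0.39 (SE 0.10, limma adjusted p = 0.0743). Both genes had promoter KO 1 as the highest sample, and their groups did not overlap. Mrps24, at the entry of the messenger RNA channel, had 61.0 and 55.7 FPKM across the WT pair, against 79.6 and 67.2 FPKM across the promoter KO pair (log2 fold change 0.32, limma adjusted p = 0.123). Mrps22, in which mutations cause a human mitochondrial disease, had 25.2 and 23.2 FPKM across the WT pair, against 32.5 and 28.4 FPKM across the promoter KO pair (log2 fold change 0.32, limma adjusted p = 0.124). The same order of samples, with promoter KO 1 above promoter KO 2 and both above WT, held in these genes, and without promoter KO 1 the log2 fold change of Mrps24 was 0.20.

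Mrps11 lies head to head with the large subunit gene Mrpl46 on chromosome 7, their RefSeq starts 42 bases apart on opposite strands, so that their promoter windows of 300 bases share 141 bases. Mrpl46, named for this neighbour after its values were seen, had 39.3 and 41.6 FPKM across the WT pair, against 49.9 and 43.6 FPKM across the promoter KO pair, a log2 fold change of 0.20 (SE 0.10, limma adjusted p = 0.231). Both genes of the pair were highest in promoter KO 1, and promoter KO 2 alone was 0.11 above the WT mean for Mrpl46. Their annotated exons overlap by 173 bases, and whether fragments were assigned by strand is not given in the sources used here, so reads in the overlap cannot be told apart.

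The lowest small subunit values belonged to Mrps21, Mrps16, Mrps6, Mrps30 and Mrps36. Mrps21, the most abundant small subunit gene, had 226 and 219.9 FPKM across the WT pair, against 192 and 193 FPKM across the promoter KO pair, a log2 fold change of -0.21 (SE 0.07, limma adjusted p = 0.113). Mrps16 had 112 and 125 FPKM across the WT pair, against 104 and 99.6 FPKM across the promoter KO pair (log2 fold change -0.21, limma adjusted p = 0.165). In both, the promoter KO samples lay below the WT samples, and without WT 2 the log2 fold change of Mrps16 was -0.13. Mrps6 had 36.1 and 50.3 FPKM across the WT pair, against 39.9 and 35.1 FPKM across the promoter KO pair (log2 fold change -0.18, limma adjusted p = 0.490); its groups overlapped, and without WT 2 its value was 0.05.

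Some symbols do not match the place of the protein. The product of Mrps36 is now known as a component of the oxoglutarate dehydrogenase complex rather than of the ribosome, and it had 58.3 and 58.4 FPKM across the WT pair, against 51.9 and 59.1 FPKM across the promoter KO pair (log2 fold change -0.07, limma adjusted p = 0.627). The products of Mrps30 and Mrps18a sit in the large subunit. Mrps30 had 126 and 123 FPKM across the WT pair, against 121 and 114 FPKM across the promoter KO pair (log2 fold change -0.08, limma adjusted p = 0.503). The log2 fold change of Mrps30 was -0.12 without promoter KO 1 and -0.04 without promoter KO 2. Mrps18a, Mrps18b and Mrps18c encode relatives of a single bacterial protein. Mrps18a had 61.3 and 65.1 FPKM across the WT pair, against 58.3 and 101 FPKM across the promoter KO pair, so that the promoter KO samples lay on either side of WT (log2 fold change 0.28, 95% interval from -0.31 to 0.86, limma adjusted p = 0.461). Mrps18b, of the small subunit, had 62.1 and 60.8 FPKM across the WT pair, against 86.1 and 73.8 FPKM across the promoter KO pair (log2 fold change 0.37, SE 0.10, limma adjusted p = 0.0788). Mrps18c, the relative that keeps the bacterial protein's place, had 131 and 116 FPKM across the WT pair, against 127 and 126 FPKM across the promoter KO pair (log2 fold change 0.04, limma adjusted p = 0.765). The 3 relatives therefore gave 3 patterns, with overlap between the groups in Mrps18a and Mrps18c and none in Mrps18b.

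With the genes sorted by the place of the protein, the 50 of the large subunit had a median log2 fold change of 0.10 and the 26 of the small subunit 0.12. They were also sorted by whether the bacterial ribosome has a protein at the same place, so that Mrps18a and Mrps18b, relatives of a bacterial protein that sit at places of their own, counted as lacking one. Unless set by hand, large subunit genes were sorted by the number in their symbol, so single genes, such as Mrpl55, may be in the wrong class. In the large subunit the 29 sorted as having a bacterial protein at their place had a median of 0.10 and the 21 sorted as lacking one also 0.10. With promoter KO 2 alone against WT the medians of these large subunit classes were 0.0618 and 0.0350. In the small subunit the medians were 0.05 for the 16 with one and 0.18 for the 10 without one, all 10 of which were above 0, as were 55 of 77 members. With promoter KO 2 alone against WT these medians were 0.02 and 0.11. In promoter KO 2, Mrps27 (-0.07), Mrps33 (-0.05) and Mrps35 (-0.01) of the 10 lay below the WT mean. The summed level of those 10 was 456 and 445 FPKM across the WT pair, against 547 and 491 FPKM across the promoter KO pair, a ratio of 1.15, and that of the 16 was 1166 and 1182 FPKM across the WT pair, against 1193 and 1162 FPKM across the promoter KO pair, a ratio of 1.00. The difference between these classes was not tested, and 3 of the 10 (Mrps25, Mrps33 and Mrps35) are on chromosome 6. Members with the YY1 letters had a median of 0.19 and the other members with a promoter entry 0.07, whereas the share above 0 was alike, at 14 of 20 with the letters and 55 of 77 over all members. The SP1 letters gave a similar split, with medians of 0.13 and 0.04. The median was also higher with the TATA box letters (0.167 and 0.0859) and the MYC/MAX E-box (0.159 and 0.0965), in 4 and 5 members. The ZNF143 letters, in 5 members, went the other way (0.0458 and 0.0987). Medians were nearly equal with and without the ETS letters (0.0927 and 0.0976) and the NRF1 letters (0.0934 and 0.0976).

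The members whose promoter KO samples differed most from each other were placed by chromosome, a pattern noticed after their values were seen. Of 77 members, 4 were higher in promoter KO 2 than in promoter KO 1 by more than 0.3 on the log2(FPKM + 1) scale, and all 4 (Mrpl14, Mrpl2, Mrps10 and Mrps18a) lie between 40 and 70 Mb of chromosome 17. Mrpl14 had 69.0 and 84.8 FPKM across the WT pair, against 49.0 and 87.0 FPKM across the promoter KO pair. Mrpl2, of the region that joins amino acids, had 156 and 153 FPKM across the WT pair, against 159 and 226 FPKM across the promoter KO pair. Mrps10, of the head of the small subunit, had 58.4 and 62.5 FPKM across the WT pair, against 48.4 and 76.3 FPKM across the promoter KO pair. In each of them promoter KO 2 was the highest of the 4 samples, and in all but Mrpl2 promoter KO 1 was the lowest. Mrpl14 had the widest gap, 0.18 above the WT mean in promoter KO 2 and -0.63 from it in promoter KO 1.

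**Figure D3:**
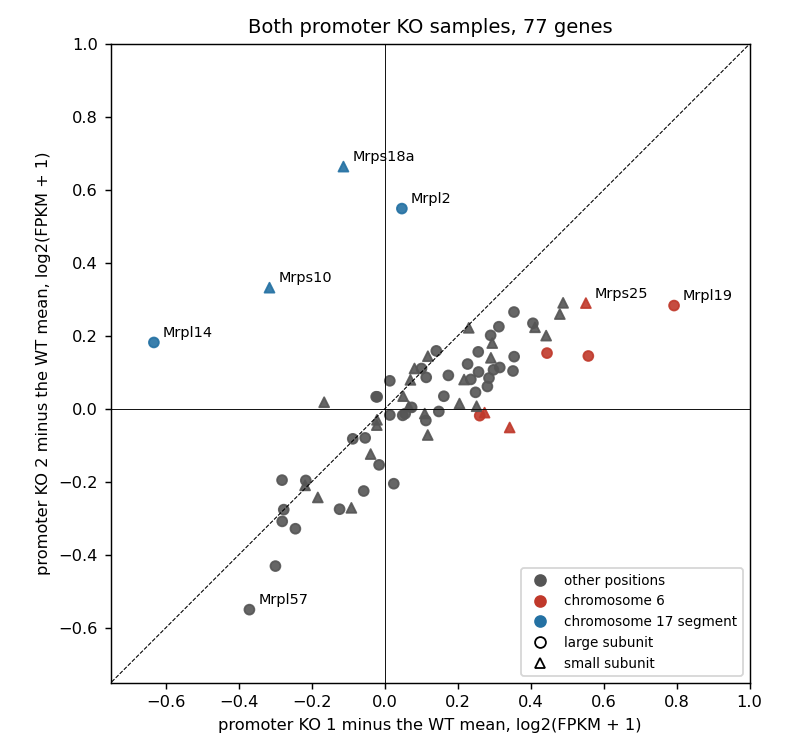
Difference of promoter KO 1 (horizontal) and of promoter KO 2 (vertical) from the WT mean on log2(FPKM + 1), 1 point per member, with the line of equal values dashed and the same WT mean subtracted on both axes. The 4 members of the chromosome 17 segment (blue) lie far above the line, the 7 on chromosome 6 (red) lie below it, and most others lie near or slightly below it.

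The 11524 of 11941 tested genes with a known position were then compared by it. In 225 windows of 10 Mb with at least 15 tested genes, the median difference of promoter KO 2 from promoter KO 1 exceeded 0.3 in size in 3, and these were the 3 windows from 40 to 70 Mb of chromosome 17, at 0.53, 0.58 and 0.64. The largest size in any other window was 0.28. Of the 142 tested genes in the segment, 136 had their higher level in promoter KO 2 of the pair, with a median difference from the WT mean of 0.50 in promoter KO 2 (1.42-fold) and -0.07 in promoter KO 1. The WT samples differed there by medians of 0.02, 0.00478 and -0.01 in the 3 windows. The 4 members there had a median difference of 0.44 in promoter KO 2 and -0.21 in promoter KO 1. DNA was not measured here, and the part of any change in the cells' DNA was not tested.

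On chromosome 6 the order was the other way round. The 531 tested genes there had a median difference from the WT mean of 0.23 in promoter KO 1 (1.18-fold) and 0.04 in promoter KO 2, and 413 of them had their higher level in promoter KO 1 of the pair. The 7 members there (Mrpl19, Mrpl35, Mrpl51, Mrpl53, Mrps25, Mrps33 and Mrps35) were all highest in promoter KO 1, with a median difference of 0.45 in promoter KO 1 and 0.15 in promoter KO 2. Mrpl53 had 61.5 and 68.7 FPKM across the WT pair, against 78.1 and 64.2 FPKM across the promoter KO pair. Mrps33 had 31.0 and 27.7 FPKM across the WT pair, against 37.4 and 28.3 FPKM across the promoter KO pair. Mrps35 had 39.6 and 41.4 FPKM across the WT pair, against 49.2 and 40.2 FPKM across the promoter KO pair. In these 3 genes, named after their values were seen, promoter KO 1 was above both WT samples and promoter KO 2 lay between them. The highest value of the large subunit (Mrpl19) and of the small subunit (Mrps25) both belonged to this chromosome.

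**Figure D4:**
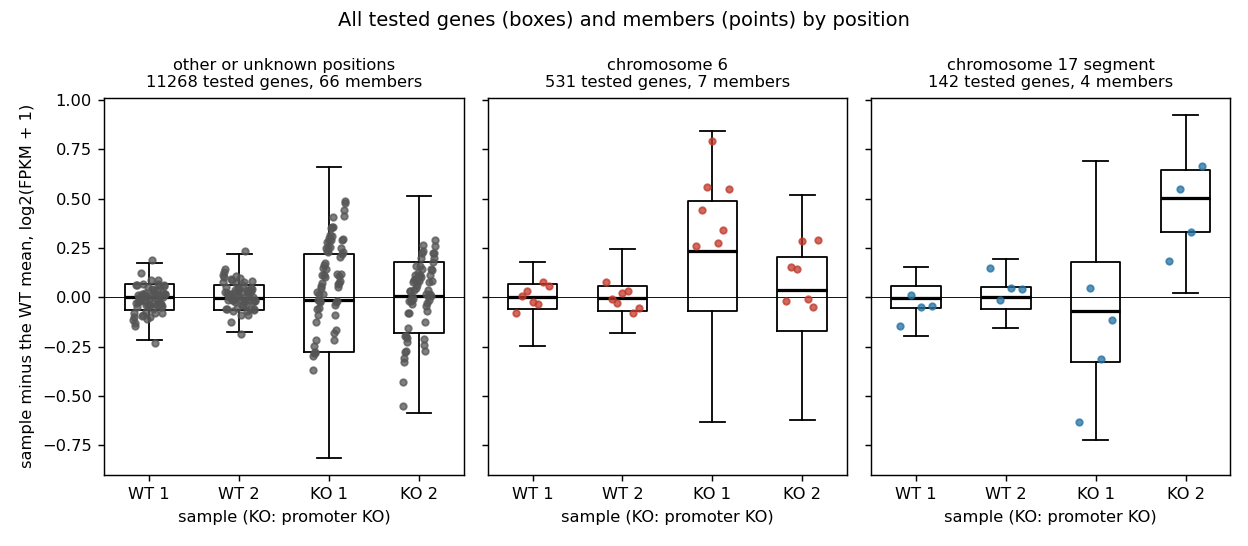
Difference of each sample from the WT mean on log2(FPKM + 1), for genes at other or unknown positions (left), on chromosome 6 (middle) and in the segment of chromosome 17 (right), with boxes for the median and quartiles of all tested genes, whiskers for their 5th to 95th percentiles, and points for members, ordered from left to right by subunit and change. In promoter KO 2 the box of the chromosome 17 segment is centred at 0.50, and in promoter KO 1 that of chromosome 6 is centred at 0.23.

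Among the 66 members at other positions, the median log2 fold change was 0.06 over the large subunit (42 genes) and 0.09 over the small subunit (24 genes), with 9 higher and 6 lower unadjusted at 0.05 (of 66, against 1633 higher and 1804 lower of the 11268 tested genes placed neither on chromosome 6 nor in the segment, those of unknown position included, or 13.6% against 14.5% for higher). The large subunit genes there summed to 3150.0 and 3201 FPKM across the WT pair, against 3345 and 3180 across the promoter KO pair, so that promoter KO 2 lay between the WT samples. The small subunit genes there summed to 1665 and 1664 FPKM across the WT pair, against 1759 and 1666 across the promoter KO pair, so that promoter KO 2 was close to WT. When each sample was centred on the genes of the same chromosome, with the chromosome 17 segment centred apart from the rest of its chromosome, an alternative chosen after seeing the data, the medians over all members were 0.07 (large) and 0.06 (small), 0 members passed the adjusted threshold of limma, and 11 were higher and 7 lower unadjusted (18 of 77, against 31.4% of all genes in that setting).

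The annotation (GENCODE M21, GRCm38) sets a limit on single genes. In 7 members (Mrpl19, Mrpl24, Mrpl43, Mrpl53, Mrps18b, Mrps25 and Mrps34) over 25% of the exonic bases lie in an exon of another gene, up to 88.0% in Mrpl53 and 69.8% in Mrps25. A further feature, a transcript elsewhere with at least 200 bases at 95% identity or more, was found for 11 members (Mrpl13, Mrpl21, Mrpl22, Mrpl23, Mrpl27, Mrpl30, Mrpl32, Mrpl41, Mrpl42, Mrpl48 and Mrpl51). The values of these genes are uncertain to the extent that the authors' counting could split or share fragments. Across the 77 genes the order of levels was nearly the same in both groups (Spearman's rho between the group means 0.968, across genes, which are not independent replicates, against 0.984 for WT 1 with WT 2 and 0.956 for promoter KO 1 with promoter KO 2).

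Other genes of mitochondrial translation were set beside the members. Of 7 further ribosomal proteins known by other symbols, 6 are listed beside the 77 members, Mrpl57 being the other one under its current symbol, and 0 of 6 passed the adjusted threshold of limma, with 1 higher and 1 lower at the unadjusted threshold of 0.05. Ptcd3, an RNA-binding protein of the small subunit whose gene is on chromosome 6, where levels in promoter KO 1 were higher as given above, had 32.4 and 30.2 FPKM across the WT pair, against 54.6 and 41.1 FPKM across the promoter KO pair (log2 fold change 0.58, SE 0.15, limma adjusted p = 0.0711). Chchd1, also of the small subunit, had 158 and 161 FPKM across the WT pair, against 121 and 137 FPKM across the promoter KO pair (log2 fold change -0.30, limma adjusted p = 0.0890). These lie in opposite directions in 1 subunit, with no overlap between groups in either gene. Dap3, a GTP-binding protein of the small subunit, had a log2 fold change of -0.24, Gadd45gip1 of the large subunit -0.11, Aurkaip1 of the small subunit 0.02 and Ict1, a release factor built into the large subunit, 0.02.

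Of 23 genes for assembly of the ribosome (RNA-modifying enzymes, GTPases and helicases that mature it) 0 were called by limma, 2 were higher and 0 lower unadjusted, and the median log2 fold change was 0.14. Their sum was 418 and 413 FPKM across the WT pair, against 480.2 and 433 FPKM across the promoter KO pair. Of 17 translation factors 0 were called (4 higher and 1 lower unadjusted, median -0.00492, or 0.0264 with median centring), and of 17 mitochondrial aminoacyl-tRNA synthetases, which charge the transfer RNAs, 0 were called (1 and 0 unadjusted, median -0.08). Of 20 factors for copying, transcribing and processing mitochondrial DNA and RNA 0 were called (4 and 2 unadjusted, median 0.17). Of 15 genes encoded in mitochondrial DNA that were looked for by symbol, 0 are among the genes listed, so their levels could not be compared. In each of these 4 tested lists, promoter KO 1 had the highest summed level of the 4 samples. Without promoter KO 2, 1 of the DNA and RNA factors was called higher, as were 1 of the 6 other ribosomal proteins and 1 of the regulators that follow. Without promoter KO 1 the medians were 0.0862 for assembly, 0.0895 for the DNA and RNA factors and -0.000429 for the synthetases.

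The list of 11 regulators of nuclear mitochondrial genes had 10 tested genes and 0 called by limma, with 5 higher and 0 lower unadjusted and a median log2 fold change of 0.21, or 0.11 without WT 2. Over all tested genes 15.0% were higher and 15.6% lower unadjusted. The following were named after their values were seen. Mycn, a driver of ribosome production and growth, had 68.9 and 87.7 FPKM across the WT pair, against 164 and 121 FPKM across the promoter KO pair (log2 fold change 0.85, SE 0.18, limma adjusted p = 0.0573). Its partner Max had a log2 fold change of 0.50 and Myc one of 0.42 (limma adjusted p = 0.0806 and 0.0981). Yy1, whose letters are shown above, had 69.0 and 61.9 FPKM across the WT pair, against 80.0 and 76.4 FPKM across the promoter KO pair (log2 fold change 0.26, limma adjusted p = 0.129). In all 4 of these the promoter KO pair lay above the WT pair without overlap. Of the 10 tested genes of the list, 5 lay above without overlap and 2 below, against 32.9% and 32.4% of all tested genes. Nrf1 (0.09) and Gabpa (0.08) had values near 0, Esrra (-0.11) and Gabpb1 (-0.13) had both promoter KO samples below WT, and the coactivator gene Ppargc1a was not tested, at 0.0290 FPKM or lower in every sample.

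The cytosolic ribosome and the respiratory chain were set beside the members. Of 81 cytosolic ribosomal protein genes 79 were tested and 0 called by limma, with 4 higher and 16 lower unadjusted and a median of -0.11 (-0.0488 under quantile normalisation), opposite in sign to the medians of the mitochondrial ribosome. Without WT 1, 2 of them were called lower, and without promoter KO 2, 2 were called higher and 1 lower. Their sum was 198010 and 212100 FPKM across the WT pair, against 183360 and 193870 across the promoter KO pair. The most abundant was Rpl41. Of 75 nuclear genes for subunits of oxidative phosphorylation, the enzymes that use the products of mitochondrial translation, 1 was called higher and 0 lower (14 and 7 unadjusted, median 0.04). The called gene was Atp5l, a subunit of ATP synthase, 305 and 299.8 FPKM across the WT pair, against 418 and 389 FPKM across the promoter KO pair (log2 fold change 0.41, limma adjusted p = 0.0476). With any 1 of the 4 samples left out it was not called, nor with a pseudocount of 0.1, another filter, no trend or median centring. Of the list, 1 gene was called lower without WT 1 and 2 were called higher without promoter KO 2, and the median was 0.0188 without promoter KO 1 and 0.00840 under quantile normalisation.

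**Figure D5:**
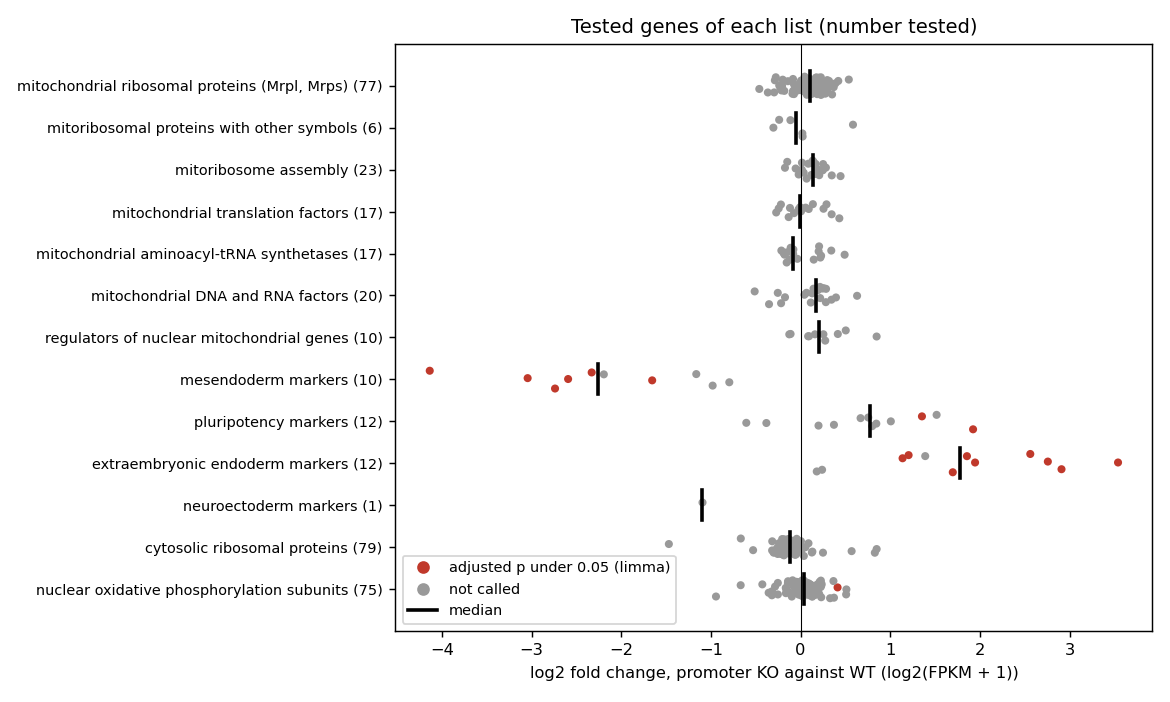
Log2 fold change (promoter KO against WT, n = 2 each, on log2(FPKM + 1)) of each tested gene of the members and of each compared list, with the number tested in brackets, the median as a black bar and genes with a limma adjusted p under 0.05 in red (vertical spread is for legibility). The lists of mitochondrial genes lie close to 0, whereas mesendoderm markers lie to the left and extraembryonic endoderm markers to the right.

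Markers of cell types differed between the groups by more than the members did. The marker lists were chosen with earlier results of these data known, so their counts are descriptions and not an independent check of cell type. Over all tested genes 3.58% were called, in both directions together. Of the 10 mesendoderm markers 6 fell and 0 rose at the adjusted threshold of limma, with a median log2 fold change of -2.26. Mesp1, of early mesoderm, had 27.0 and 101 FPKM across the WT pair, against 0.759 and 4.24 FPKM across the promoter KO pair (log2 fold change -4.14), Lhx1 had a log2 fold change of -3.04 and Mixl1 one of -2.74. Of 12 pluripotency markers 2 rose (Dnmt3l, log2 fold change 1.92, and Utf1, 1.35) and 0 fell, with sums of 2101 and 1862 FPKM across the WT pair, against 3148 and 2656 FPKM across the promoter KO pair, and Pou5f1 as the most abundant. Nanog, named after its values were seen, went the other way, with 139.9 and 113 FPKM across the WT pair, against 94.1 and 98.7 FPKM across the promoter KO pair (log2 fold change -0.38, limma adjusted p = 0.0974). Dppa3, also named after its values were seen, had a log2 fold change of -0.60, with overlap between the groups. Dnmt3l, Utf1 and Esrrb of this list were singled out by the study from these same samples. Of 12 extraembryonic endoderm markers 9 rose and 0 fell, with a median of 1.78 and sums of 71.2 and 88.6 FPKM across the WT pair, against 221 and 274 FPKM across the promoter KO pair. The largest changes among these were in Srgn (3.54), Pga5 (2.91) and Lama1 (2.76), and Sparc was the most abundant. Of 8 neuroectoderm markers 1 was tested and 0 called. That gene, Nes, had a log2 fold change of -1.10, or -0.61 without promoter KO 1 and -1.595 without promoter KO 2. The list summed to 24.3 and 26.9 FPKM across the WT pair, against 10.2 and 17.9 FPKM across the promoter KO pair, mostly from Nes. Pax6, Sox1, Zic1, Hes5 and Neurog2, all under 1 FPKM, not tested and named after their values were seen, were higher in both promoter KO samples than in WT. The calls depended on the setting and on single samples. Without the trend of limma they numbered 1 mesendoderm, 0 pluripotency and 4 extraembryonic endoderm markers, and with no filter on low values no gene of all tested passed. Without WT 1 they numbered 3 mesendoderm, 0 pluripotency and 7 extraembryonic endoderm markers, without promoter KO 2 they numbered 7, 4 and 5, and without WT 2 or promoter KO 1 no gene of all tested passed. Without promoter KO 1 the median of the mesendoderm markers was -1.68, and without WT 2 it was -2.02. No gene of these lists was at 0 in all 4 samples. The part that this difference in cell types has in the values of the mitochondrial ribosomal protein genes was not tested.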

How the data were processed

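Gene expression was measured by RNA-seq in 4 samples of day 3 EBs (2 WT, 2 promoter KO), grouped by their labels. The deposited FPKM values were made by the authors: the study's methods name FastQC, TopHat, Cufflinks and Cuffdiff with GENCODE, whereas the submitters' processing notes name HISAT2 2.1.0, Cufflinks and Cuffnorm with the mm10 genome, so the aligner is uncertain. Strand settings are not given in the sources used here. The FPKM values were put on the scale log2(FPKM + 1). The 11941 of 24347 genes that reached 1 FPKM in 2 or more samples were fitted with limma 3.58.1 in R 4.3.3 (trended prior, 3.99 prior degrees of freedom) and adjusted by Benjamini-Hochberg over all of them. The method was tested on simulated data, with no result of that test given here. Fold changes on this scale understate those of low genes. Members and lists were chosen with earlier results of these data known. Named members were, per subunit, the 5 highest and 5 lowest changes and the 3 highest levels, with those whose place in the ribosome is noted. From other lists, called genes were named, at most 3 per direction, and all other ribosomal proteins, with further genes named after their values were seen. Positions and overlaps came from GENCODE M21, promoters from RefSeq (GRCm38.p6) and near-identical copies from BLAST 2.17.0. Alternatives covered the pseudocount, filters, trend, scaling, replicate block, omission of each sample, ribosome place and genome position.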

Additional observations from a re-analysis of the deposited data

How the results depend on the processing

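No member passed the adjusted threshold of limma in the main setting or in any of the 12 alternatives with a test, and both subunit medians were above 0 in all alternatives run. The lowest adjusted p of any member ranged from 0.0505 (without promoter KO 2) to 0.285 (without WT 2). Members at an unadjusted p under 0.05 numbered 18 of 77 (12 higher, 6 lower, against 30.6% of all genes), 10 without the trend (against 29.0% of all genes), and 4 (without WT 2, against 15.7% of all genes) to 26 (without promoter KO 2, against 30.5%) when a sample was left out, where the lone sample of a group is assumed to vary like the others. When a sample was left out, the medians were 0.0537 to 0.11 (large) and 0.0352 to 0.12 (small), lowest without promoter KO 1. Without the members on chromosome 6 or in the chromosome 17 segment the large subunit median was 0.0584, and with centring by chromosome (the segment apart) the small subunit median was 0.0551; both were chosen after seeing the data. Some named members changed sign: Mrpl34 was at -0.00399 under quantile normalisation, and leaving out a sample gave ranges of -0.11 to 0.14 (Mrpl34), -0.0203 to 0.0334 (Mrpl52), -0.41 to 0.0531 (Mrps6), -0.0447 to 0.13 (Mrps18c), -0.17 to 0.0186 (Mrps36) and -0.11 to 0.66 (Mrps18a). By over 1.5 times, without turning, the values of Mrpl19, Mrpl35, Mrpl51, Mrps24, Mrpl28, Mrpl48, Mrpl23, Mrpl10 and Mrps16 moved when a sample was left out, among others. The cause was not tested. With the replicate number as a block 0 members were called, while adjusted calls over all genes went from 427 to 1202. In that setting 19 of 77 members had an unadjusted p under 0.05, against 31.5% of all genes. Deviations of samples with the same number correlated at 0.0348, so the numbers are not taken as pairs. Over all genes, calls were 82 without the trend and 0 without WT 2, without promoter KO 1 or without a filter. No pseudogene symbol matched the rule, so that alternative gave no value. Depth of about 20100000 to 24700000 fragments and 2 samples per group limit these comparisons.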
